A study of Mus musculus with 6 samples.

Results

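Genes of the centrosome were compared between RAW 264.7 macrophages, an established mouse line, that had received bisphenol AP (BPAP), a chemical relative of bisphenol A, the building block of many plastics, and those that had received the solvent DMSO. The set was chosen with earlier results of these data known. It was defined by name, as the rows of the deposited table whose symbol starts with Cep and a digit, 38 rows, and 8 further genes. Those 8 were Pcnt, Cntrob, Cntrl, Ninl, Nin, Plk4, Sass6 and Cenpj. The name rule gave 46 of 34745 rows, of which 43 are protein-coding genes and 3 are non-coding (Cep83os, Cep112it and Cep112os1). RNA sequencing was done on 3 libraries of each treatment, called here DMSO 1 to 3 and BPAP 1 to 3. The series asks how BPAP acts on macrophages, in the setting of bleomycin-induced fibrosis of the lung. The dose is not given in the sources used here, nor is the duration of exposure. The labels do not state separate cultures for the replicates, and p-values then measure only how far these libraries spread, which may be technical.

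The centrosome is the main organiser of microtubules in animal cells. It holds a pair of centrioles within a matrix of pericentriolar material, and a cycle of duplication coupled to DNA replication gives each spindle pole its own centrosome. The older centriole carries appendages that anchor microtubules and, in cells that stop dividing, dock a cilium. Many of its proteins are long coiled-coil scaffolds with large transcripts. Macrophages belong to the blood lineage, whose cells as a rule carry no primary cilium.

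Of the 46 genes, 41 had enough counts to be tested and 5 did not, so that counts below refer to the genes that passed this filter on low counts. Cep85l, Cep126, Cep112it and Cep112os1 had 0 counts in all libraries and Cep112 had 1 count, in DMSO 2. A count of 0 allows up to 0.271 CPM (counts scaled to a library total of 1000000) in the smallest library, which covers counting error only. Library totals ranged from 11084705 to 13806559 counts. The macrophage markers Adgre1, Csf1r, Cd68, Itgam, Lyz2, Ptprc, Spi1, Fcgr1, Cd14 and Tyrobp were counted in every library, with a summed level over 11 rows (Itgam has 2) of 5059 to 5684 CPM in DMSO and 5667 to 6057 CPM in BPAP. The sum rests mostly on Lyz2 and Cd68, and single markers differed in both directions: mean levels in DMSO and BPAP were 721 and 463 CPM for Ptprc, 471 and 355 for Csf1r, 94.4 and 233 for Cd14 and 18.6 and 43.8 for Fcgr1. Of 10 markers of fibroblasts, endothelial, epithelial, T and B cells, 6 were at 0 in all libraries, among them Cdh5, Epcam and Cd3e, and the highest value of any of them was 0.845 CPM. In these bulk libraries fewer dividing cells and less RNA per cell cannot be told apart.

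In BPAP-treated macrophages, 25 of the 41 tested centrosomal genes were lower than in DMSO-treated cells and 0 were higher. That is 61.0% lower, against 15.5% lower and 16.2% higher among all 11711 genes tested (quasi-likelihood test of edgeR, Benjamini-Hochberg adjustment over all genes, threshold 0.05). At an unadjusted p under 0.05, 1 of the 41, Cep170b, was higher, and DESeq2, limma-voom and limma-trend called 0 higher. Their median log2 fold change, BPAP minus DMSO, was -0.45, against 0.02 over all genes tested. The fold changes were modest. The 25 genes that passed had a median fall of 1.52-fold, and 2 of them, Cep290 and Cntrl, were at least 2-fold lower. As counted, the change ran through every role in the list: 8 of 13 genes of centriole building, 9 of 13 of the pericentriolar material, microtubule anchoring and the centriole linker, 5 of 11 of the appendages, satellites and cilium base, and 3 of 4 others, including the cytokinesis gene Cep55. Long genes as a whole were lower in these BPAP libraries, and most centrosomal genes are long. Once a trend with the length and GC content of exons had been taken out of each library (called here the trend-removed fit), 15 of the 41 were lower and 1 was higher, against 11.3% lower and 11.8% higher among 11665 genes. By role, in the order above, 5 of 13, 5 of 13, 2 of 11 (18.2%) and 3 of 4 were lower in that fit.

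**Figure D1:**
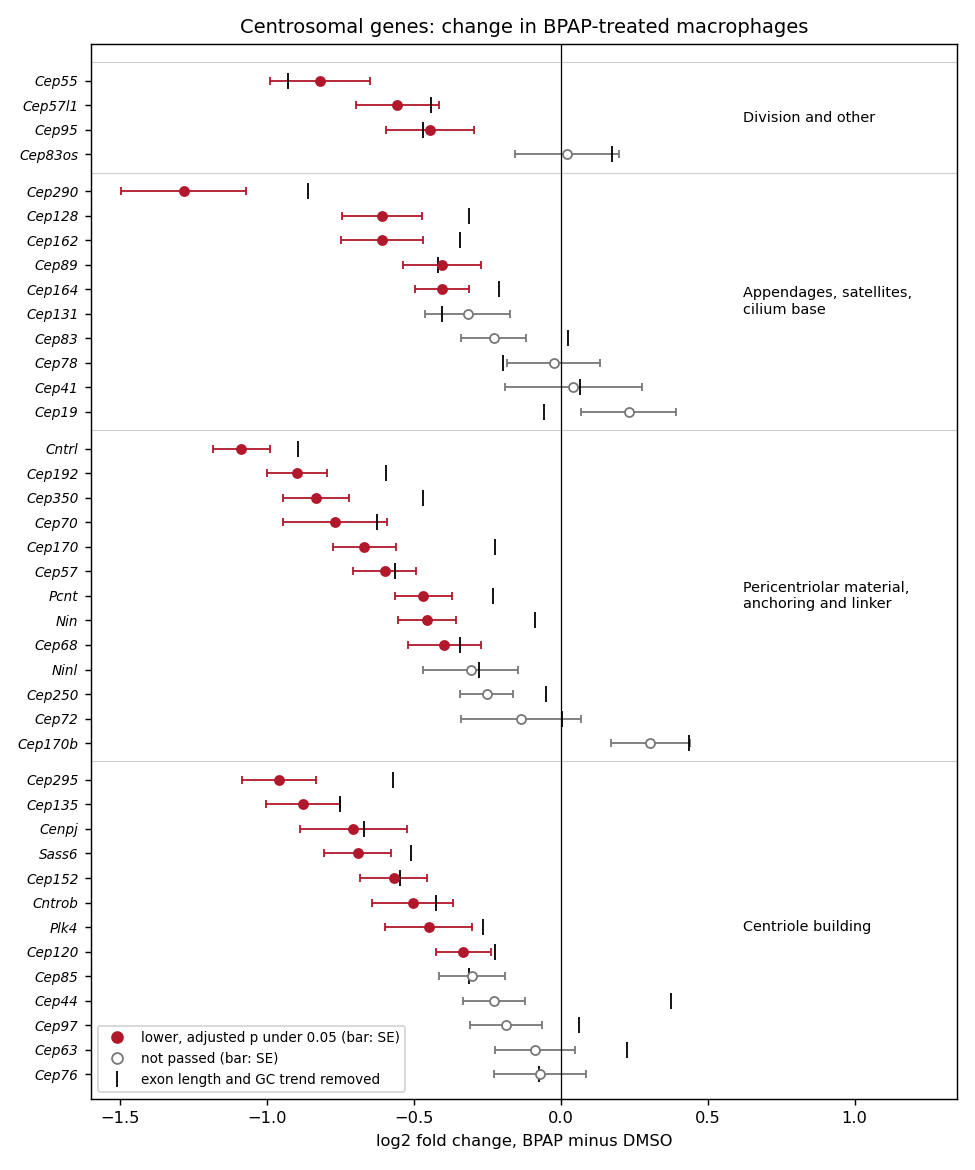
Log2 fold change (BPAP minus DMSO, horizontal axis) of 40 of the tested centrosomal genes by role. Circles are the estimates with their standard errors, filled where the gene was lower at an adjusted p of 0.05 and open where it did not pass, and black ticks are the estimates of the trend-removed fit. All 25 genes that passed lie below 0, and for Cep55 the tick lies further from 0 than the circle.

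All 3 BPAP values lay above all 3 DMSO values in 0 of the 41 genes, and the share of all genes in that direction is not given here. They lay below in 29 of the 41 genes (70.7%), against 23.8% of all genes tested. The 29 were the 25 genes that passed and Cep131, Cep85, Cep250 and Cep44. Among the 25, BPAP 2 was the lowest library in 19, BPAP 1 in 3 and BPAP 3 in 3. The summed level of all 46 genes was 2241, 2181 and 2192 CPM in DMSO 1 to 3 and 1522, 1323 and 1584 CPM in BPAP 1 to 3. The DMSO libraries were close together, BPAP 2 was the lowest, and the groups did not overlap. The mean of the BPAP sums was 0.670 times that of the DMSO sums. These sums are as counted, with no trend taken out. They weigh strongly counted genes most, such as Cep170 and Cep350, with means of 349 and 240 CPM in DMSO. Without BPAP 2, 22 of the 41 genes (53.7%) were lower, against 14.0% of all genes tested in that fit.

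The promoters of a few of these genes are shown first, because the genes moved together and because many centrosomal genes are transcribed in step with the cell cycle. Windows of 300 bases from RefSeq (GRCm38.p6, 250 bases before to 50 after the annotated start) were matched by symbol for 38 of the 46 genes, taking the window nearest to the start of the deposited gene. The windows printed are those of Cep295, Cntrl, Cep290 and Cep55, the genes that fell most in each role among those with a window, of Plk4, the kinase that starts centriole duplication, and of Cep83, a gene that did not pass. Capitals mark matches on either strand to 3 motifs of cell cycle promoters. These are the CHR element (TTTGAA or TTCGAA), the core of E2F sites (TTCCCGC or TTCGCGC or TTGCCGC or TTGGCGC) and the box with the letters CCAAT, and none of them holds another. The windows are chr9:15357739-15358038 (minus strand) for Cep295, chr2:35109242-35109541 (plus) for Cntrl, chr10:100487332-100487631 (plus) for Cep290, chr19:38054791-38055090 (plus) for Cep55, chr3:40799701-40800000 (plus) for Plk4 and chr10:94688540-94688839 (plus) for Cep83. That of Cep290 belongs to a start site 707 bases from the start in the deposited table. Of the windows not printed, the farthest were those of Ninl (29984 bases), Cep44 (481) and Cep63 (410), all tested genes that did not pass. The windows of Cep83 and Cep83os, which did not pass either, cover mostly the same bases and are both counted below.
Cep295: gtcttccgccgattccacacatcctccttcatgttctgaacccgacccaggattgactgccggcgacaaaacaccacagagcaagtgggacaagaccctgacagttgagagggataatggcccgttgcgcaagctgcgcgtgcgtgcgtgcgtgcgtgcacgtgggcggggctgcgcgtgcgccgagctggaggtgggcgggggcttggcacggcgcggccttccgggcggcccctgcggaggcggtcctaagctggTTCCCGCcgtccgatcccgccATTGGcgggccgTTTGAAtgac
Cntrl: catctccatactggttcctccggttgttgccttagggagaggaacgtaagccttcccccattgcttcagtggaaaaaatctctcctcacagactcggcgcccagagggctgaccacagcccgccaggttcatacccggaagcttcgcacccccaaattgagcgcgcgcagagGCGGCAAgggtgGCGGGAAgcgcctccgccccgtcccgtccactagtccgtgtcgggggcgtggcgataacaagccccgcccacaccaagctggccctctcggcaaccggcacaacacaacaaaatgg
Cep290: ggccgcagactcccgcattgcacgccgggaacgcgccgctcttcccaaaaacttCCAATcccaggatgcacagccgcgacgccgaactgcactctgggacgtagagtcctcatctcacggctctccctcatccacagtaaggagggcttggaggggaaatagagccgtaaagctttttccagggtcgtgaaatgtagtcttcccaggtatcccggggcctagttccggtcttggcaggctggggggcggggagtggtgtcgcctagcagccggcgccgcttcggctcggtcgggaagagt
Cep55: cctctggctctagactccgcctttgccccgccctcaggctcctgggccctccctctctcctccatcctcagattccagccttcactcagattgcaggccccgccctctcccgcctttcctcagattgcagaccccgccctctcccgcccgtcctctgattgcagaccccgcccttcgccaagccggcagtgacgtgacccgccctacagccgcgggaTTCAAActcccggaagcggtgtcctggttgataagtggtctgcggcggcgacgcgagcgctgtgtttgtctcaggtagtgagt
Plk4: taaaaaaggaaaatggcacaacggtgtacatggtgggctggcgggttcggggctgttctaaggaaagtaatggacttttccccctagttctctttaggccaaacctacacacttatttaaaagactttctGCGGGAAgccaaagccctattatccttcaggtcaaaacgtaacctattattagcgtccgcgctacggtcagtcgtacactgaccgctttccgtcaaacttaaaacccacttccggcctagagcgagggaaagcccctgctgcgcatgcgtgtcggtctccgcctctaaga
Cep83: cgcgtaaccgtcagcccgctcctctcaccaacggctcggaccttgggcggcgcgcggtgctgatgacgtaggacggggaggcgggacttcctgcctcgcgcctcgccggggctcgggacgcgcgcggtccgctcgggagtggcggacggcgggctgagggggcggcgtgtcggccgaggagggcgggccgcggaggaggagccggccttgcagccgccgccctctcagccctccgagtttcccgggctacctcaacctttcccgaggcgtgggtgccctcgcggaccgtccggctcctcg

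The Cep295 window held 1 match to each of the 3 motifs, all of them after the annotated start. Cntrl held 2 matches to the E2F core and Plk4 held 1, Cep55 held a CHR match, Cep290 a CCAAT box and Cep83 none of the 3. The E2F core was found in 16 of the 38 windows (42.1%), against 9.57% of all 32851 windows and 17.0% of the 10988 windows of gene symbols tested. It was in 11 of 21 windows of genes that fell and in 4 of 14 of tested genes that did not pass. The CHR element was in 11 of 38 windows (28.9%), against 19.2% of all windows and 14.1% of those of tested symbols, with 9 of the 21 and 1 of the 14. A CCAAT box was in 16 of 38 (42.1%), against 37.4% and 38.2%, with 11 of the 21 and 4 of the 14, the same split as for the E2F core. Longer E2F sites (TTTCCCGC or TTTCGCGC or TTTGCCGC or TTTGGCGC, which contain the core), the NRF1 palindrome, an ETS site (CCGGAAGT) and the E-box (CACGTG) were each in 2 of 38 windows (5.26%), against 2.26%, 2.27%, 3.89% and 7.15% of all windows and 4.11%, 5.35%, 8.68% and 10.1% of those of tested symbols. The 7 motifs were searched after the fold changes were known, on windows that differ in base composition: their median GC content was 62.3% for the centrosomal genes, 60.7% for tested symbols and 52.7% for all. The comparison sets count every window of a symbol, where only the nearest was taken for a centrosomal gene. Among the 38 windows are those of Cep112, Cep85l and Cep126, which were not tested. A match is a run of letters and not a bound site, and no binding was measured.

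Of the 13 tested genes of centriole building, 8 fell, and all 13 log2 fold changes were below 0 (median -0.45). Duplication starts when the kinase Plk4 is placed on the parent centriole by the scaffolds Cep152, Cep192 and Cep63. Sass6 then builds the cartwheel, Cep135 ties it to the wall, and Cenpj and Cep120 let the wall grow. Cep295, which lets a new centriole become a centrosome (chromosome 9, 15316915 to 15357788, GRCm38), had 74.2, 79.6 and 70.0 CPM in DMSO 1 to 3 and 41.5, 31.3 and 42.2 CPM in BPAP 1 to 3. Every BPAP library was well below every DMSO library, and BPAP 2 was the lowest. It was 1.94-fold lower (log2 change of -0.96 with SE 0.12 and adjusted p = 0.000863, edgeR). Its exons overlap genes on the opposite strand, so its counts are uncertain. Among these genes, Taf1d shares 77 bases (0.474% of the Cep295 exons) and Gm16568, with a mean count of 0, shares 1765.

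Cep135 (chromosome 5, 76588698 to 76646466) had 24.0, 23.4 and 22.5 CPM in DMSO 1 to 3 and 14.0, 10.9 and 13.0 CPM in BPAP 1 to 3. The DMSO values were nearly level and the groups were far apart. It was 1.84-fold lower (log2 change of -0.88 with SE 0.13 and adjusted p = 0.00138, edgeR), and in contrast with Cep295 none of its exons overlap another annotated gene. Cenpj, whose product CPAP binds tubulin (chromosome 14, 56526761 to 56571846), was among the more weakly counted genes, at 13.8, 11.5 and 13.9 CPM in DMSO 1 to 3 and 10.1, 6.49 and 7.38 CPM in BPAP 1 to 3. BPAP 1 came nearest to the DMSO libraries, but the groups did not overlap. Cenpj was 1.63-fold lower (log2 change of -0.71 with SE 0.18 and adjusted p = 0.0155, edgeR), a call that was lost without DMSO 3 (adjusted p = 0.0552).

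Sass6 was 1.62-fold lower, from 32.5 ± 2.58 to 20.1 ± 1.70 CPM (SD, n = 3 per group), though it shares exon sequence with Trmt13 on the opposite strand. The scaffold gene Cep152 was 1.48-fold lower, from 25.9 ± 1.42 to 17.4 ± 1.52 CPM. Cntrob, which marks the daughter centriole, was 1.42-fold lower, and Cep120 1.26-fold lower. Cntrob did not pass without DMSO 2 (adjusted p = 0.0629), and Cep120 did not pass without DMSO 2 (0.0681), DMSO 3 (0.0567) or BPAP 1 (0.0620). Plk4 itself had 34.7, 47.2 and 38.2 CPM in DMSO 1 to 3 and 30.2, 24.3 and 33.4 CPM in BPAP 1 to 3. The groups did not overlap, but BPAP 3 and DMSO 1 were close. Plk4 was 1.37-fold lower (log2 change of -0.45 with SE 0.15 and adjusted p = 0.0413, edgeR), and the call was lost in 4 of the 6 fits without 1 library: without DMSO 2 (adjusted p = 0.165), DMSO 3 (0.0740), BPAP 1 (0.0746) or BPAP 2 (0.0983). The other 5 genes of this role did not pass. Cep85 had a log2 fold change of -0.30 (SE 0.11), Cep44 of -0.23 (SE 0.10) and Cep97, a partner of the centriole cap, of -0.19 (SE 0.12). Cep63, which brings Cep152 to the parent centriole, had -0.09 (SE 0.14), and Cep76, which limits extra rounds of duplication, -0.07 (SE 0.16).

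**Figure D2:**
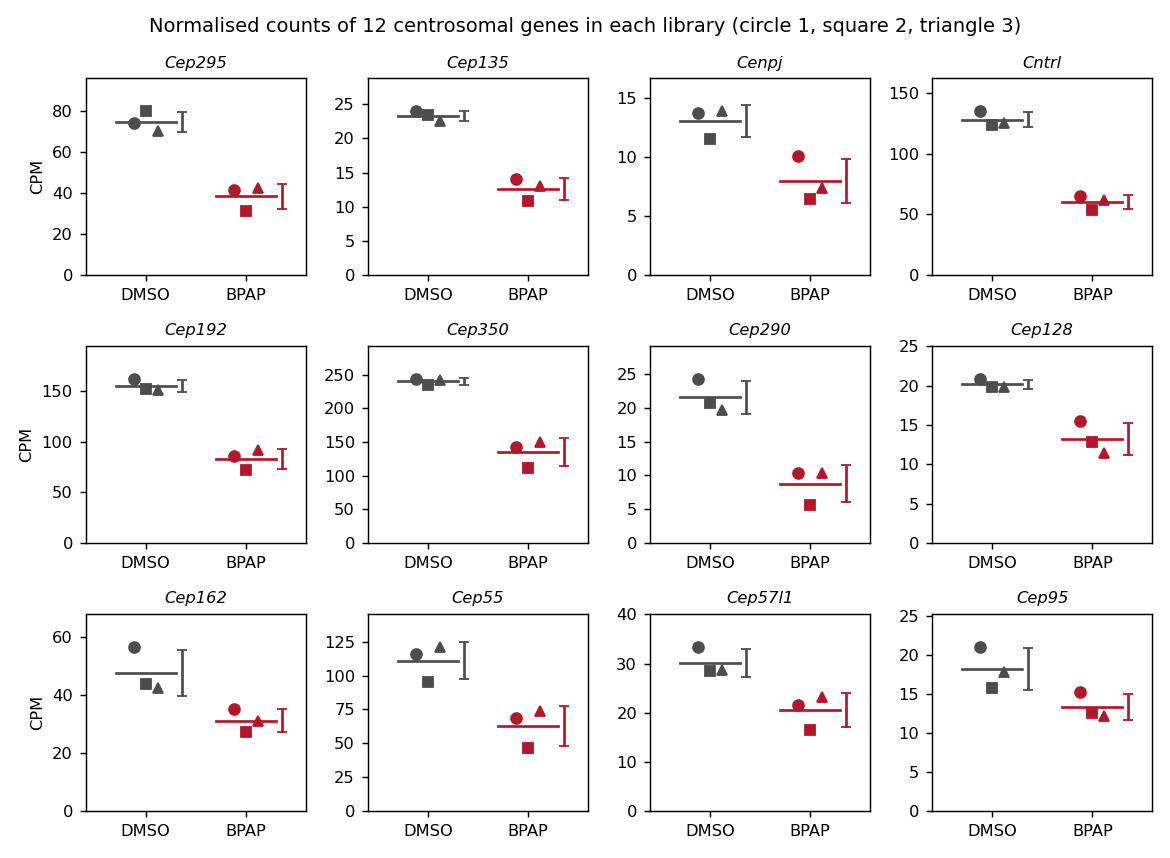
TMM-normalised CPM (vertical axes starting at 0) of 12 centrosomal genes in each library, 3 per role, in grey for DMSO and red for BPAP. Symbols are libraries 1 (circle), 2 (square) and 3 (triangle), the horizontal line is the mean and the bar beside it the SD (n = 3). In each of the 12 genes all BPAP values lie below all DMSO values, and Cep290 lies at 19.7 to 24.2 CPM in DMSO and 5.66 to 10.4 CPM in BPAP.

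Genes of the pericentriolar material, of microtubule anchoring and of the centriole linker, taken as 1 role, fell in 9 of 13 cases (median log2 fold change -0.47). Cntrl, the gene of centriolin, a protein of the subdistal appendages and of the midbody (chromosome 2, 35109492 to 35178822), had 135, 123 and 125 CPM in DMSO 1 to 3 and 64.8, 53.9 and 61.7 CPM in BPAP 1 to 3. The groups were separated by a wide gap and each was tight. Cntrl was 2.13-fold lower (log2 change of -1.09 with SE 0.10 and adjusted p = 0.000258, edgeR), the smallest adjusted p among the 41 genes. Cep192, the scaffold that recruits pericentriolar material for mitosis (chromosome 18, 67800107 to 67885168), had 162, 152 and 151 CPM in DMSO 1 to 3 and 85.7, 72.2 and 91.8 CPM in BPAP 1 to 3. Here too BPAP 2 was the lowest, and no value overlapped. Cep192 was 1.86-fold lower (log2 change of -0.90 with SE 0.10 and adjusted p = 0.000545, edgeR). Cep350, of a very large protein of centrioles and microtubules (chromosome 1, 155844964 to 155973255), had 244, 235 and 242 CPM in DMSO 1 to 3 and 142, 111 and 151 CPM in BPAP 1 to 3. The DMSO values were nearly level, and BPAP 2 was the lowest. It was 1.78-fold lower (log2 change of -0.83 with SE 0.11 and adjusted p = 0.00101, edgeR).

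Of the other 10 genes of this role, 6 fell and 4 did not pass. Cep70 was 1.70-fold lower and Cep57, which helps hold the matrix on the centriole, 1.52-fold lower, from 52.6 ± 1.17 to 34.6 ± 3.98 CPM (SD, n = 3 per group). Cep170, of the subdistal appendages, was 1.59-fold lower, from 349 ± 16.7 to 219 ± 31.1 CPM. Pcnt, the gene of pericentrin, the main scaffold of the matrix, was 1.38-fold lower, from 53.0 ± 3.09 to 38.3 ± 1.97 CPM. Nin, the gene of the microtubule anchor ninein, was 1.37-fold lower and Cep68, of the linker between centrioles, 1.32-fold lower. The call of Cep68 was lost in 5 of the 6 fits without 1 library, that without BPAP 2 being the exception (adjusted p 0.0659 to 0.117). Cep250, which encodes the linker protein C-Nap1, missed the threshold (log2 change of -0.25 with SE 0.09 and adjusted p = 0.0559, edgeR), with all BPAP values below all DMSO values. Ninl, Cep72 and Cep170b had log2 fold changes of -0.31, -0.14 and 0.30 and did not pass. Cep72 had 18.7, 15.6 and 18.0 CPM in DMSO 1 to 3 and 18.5, 10.5 and 18.6 CPM in BPAP 1 to 3, so that only BPAP 2 stood apart, and without that library its log2 fold change was 0.09. Cep170b is the paralogue of Cep170. The difference between those 2 genes in their response was not tested.

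Among genes of the appendages, satellites and cilium base, 5 of 11 fell (median log2 fold change -0.32). Cep290, which builds the gate at the base of the cilium and is also a centriolar satellite protein (chromosome 10, 100488289 to 100573655), showed the largest change of the 41 as counted, though Cep55 and Cntrl exceeded it in the trend-removed fit and Cntrl with limma-trend on FPKM. It had 24.2, 20.7 and 19.7 CPM in DMSO 1 to 3 and 10.4, 5.66 and 10.3 CPM in BPAP 1 to 3. BPAP 2 was well below the other BPAP libraries, and all 3 lay below DMSO. Cep290 was 2.44-fold lower (log2 change of -1.28 with SE 0.21 and adjusted p = 0.00247, edgeR). Its exons overlap 4930430F08Rik on the opposite strand over 881 bases, a gene with a similar mean count of 197 against 188 for Cep290, so its counts are uncertain. Cep128, of the subdistal appendages (chromosome 12, 90998492 to 91384409), had 20.8, 19.9 and 19.9 CPM in DMSO 1 to 3 and 15.5, 12.8 and 11.4 CPM in BPAP 1 to 3. DMSO values were level and BPAP 3 was the lowest. It was 1.53-fold lower (log2 change of -0.61 with SE 0.14 and adjusted p = 0.00851, edgeR). Cep162, which links the cilium's axoneme to the gate (chromosome 9, 87189577 to 87255536), had 56.6, 43.7 and 42.3 CPM in DMSO 1 to 3 and 35.2, 27.2 and 31.0 CPM in BPAP 1 to 3. DMSO 1 stood above the other DMSO libraries, and the groups did not overlap. Cep162 was 1.52-fold lower (log2 change of -0.61 with SE 0.14 and adjusted p = 0.00969, edgeR).

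Of the 3 genes of the distal appendages, 2 fell. Cep164 was 1.32-fold lower, from 51.7 ± 2.34 to 39.0 ± 0.841 CPM (SD, n = 3 per group), and Cep89 1.32-fold lower, from 21.8 ± 1.98 to 16.5 ± 2.22 CPM. The call of Cep89 was lost in 4 of the 6 fits without 1 library: without DMSO 2 (adjusted p = 0.145), DMSO 3 (0.108), BPAP 1 (0.124) or BPAP 2 (0.0861). Cep83, which sits at the root of these appendages, did not pass, at a log2 fold change of -0.23 (SE 0.11), but passed as lower with the trend in the FPKM length taken out (-0.35, adjusted p = 0.0472, edgeR). The differences between these genes were not tested. The non-coding gene Cep83os starts beside Cep83 on the opposite strand, and the 2 genes' promoter windows overlap. Cep83os had 21.1, 22.7 and 23.5 CPM in DMSO 1 to 3 and 24.1, 16.2 and 28.0 CPM in BPAP 1 to 3, with BPAP 2 below and BPAP 1 and BPAP 3 above every DMSO library, and a log2 fold change of 0.02 (SE 0.18). Cep131, a satellite gene, had -0.32 (SE 0.14) and Cep78 -0.02 (SE 0.16). Cep41, which is linked to tubulin glutamylation in cilia, had 0.04 (SE 0.23), and Cep19, needed for cilium formation, 0.23 (SE 0.16). Neither passed, and Cep41 was the most weakly counted of the 41, at 5.53 ± 1.62 CPM in DMSO.

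The protein of Cep55 gathers the abscission machinery at the midbody at the end of cell division. Cep55 has the highest level per exon length of the 41, at 38.2 CPM per kilobase of merged exons in DMSO and 21.6 in BPAP. The next on that scale were Cep170 at 19.3 and Cep350 at 14.5 in DMSO, and the lowest were Cep63 at 1.15 and Cep41 at 1.11. Cep55 (chromosome 19, 38055025 to 38074425) had 116, 95.4 and 121 CPM in DMSO 1 to 3 and 68.7, 46.3 and 73.5 CPM in BPAP 1 to 3. DMSO 2 and BPAP 2 were the lowest of their groups, and the groups did not overlap. It was 1.76-fold lower (log2 change of -0.82 with SE 0.17 and adjusted p = 0.00778, edgeR). Of the other genes outside the main roles, Cep57l1, the paralogue of Cep57 (chromosome 10, 41718840 to 41809871), had 33.4, 28.4 and 28.7 CPM in DMSO 1 to 3 and 21.6, 16.6 and 23.2 CPM in BPAP 1 to 3. BPAP 2 was the lowest of its values. It was 1.47-fold lower (log2 change of -0.56 with SE 0.14 and adjusted p = 0.0144, edgeR), a call lost with the trend in the FPKM length taken out (adjusted p = 0.0567). Cep95 (chromosome 11, 106789252 to 106819930) had 21.02, 15.8 and 17.8 CPM in DMSO 1 to 3 and 15.3, 12.5 and 12.2 CPM in BPAP 1 to 3, with BPAP 1 just below DMSO 2. It was 1.36-fold lower (log2 change of -0.45 with SE 0.15 and adjusted p = 0.0445, edgeR), a call lost without DMSO 1 (adjusted p = 0.136), DMSO 3 (0.0929), BPAP 2 (0.0898) or BPAP 3 (0.118), and also with upper quartile factors (0.0537), limma-voom (0.0521) or the trend in the FPKM length taken out (0.0574).

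Length moved with these changes. The merged exons of the 41 genes, each base counted once, had a median length of 6660 bases in a median of 20 exons, against 4298 bases and 9 exons for the 11665 tested genes with an annotation, and 34 of the 41 were longer than that median. Their median GC content was 46.6%, against 49.4%. Across all tested genes, which are not independent replicates, log2 fold changes had a Spearman correlation of -0.40 with exon length and -0.35 with the number of exons. Across the 41 centrosomal genes the correlations were -0.35 with exon length and -0.52 with the number of exons (all as descriptions, over the same 6 libraries). Merged exons had a median length of 6861 bases in the 25 genes that fell and 6024 in the 16 that did not pass. In the trend-removed fit, the correlation with exon length was 0.06 in the 41 genes and 0.06 over all genes. That with exon number was -0.35 in the 41 genes and -0.10 over all genes. The median log2 fold change of the 41 genes was -0.31 in that fit, against 0.00 over all genes.

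**Figure D3:**
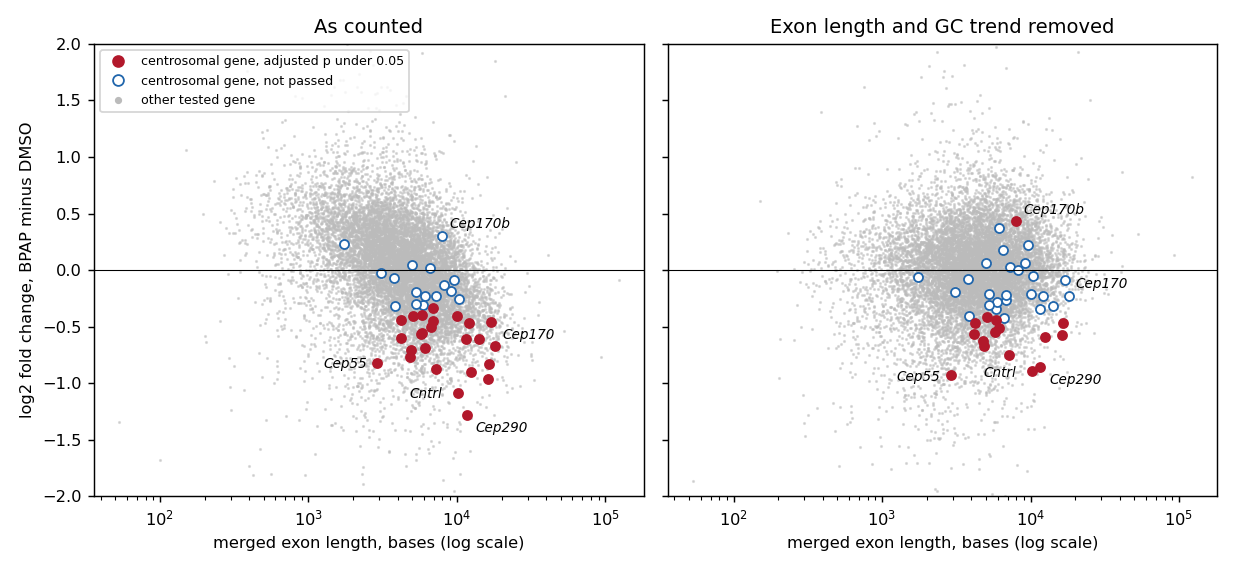
Log2 fold change (BPAP minus DMSO) against merged exon length in bases (log scale) for all tested genes with an annotation (grey) and the 41 centrosomal genes (red where the adjusted p is under 0.05, open where not passed), as counted (left) and with each library's exon length and GC trend removed (right). In the left panel 19 genes and in the right 23 lie outside the axis. Long genes lie lower on the left, and on the right Cep55, Cntrl and Cep290 remain near -0.9.

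With that trend removed, 15 of the 25 genes still passed as lower. These were Cep295, Cep135, Cenpj, Sass6 and Cep152 of centriole building, and Cntrl, Cep192, Cep350, Cep70 and Cep57 of the role of pericentriolar material, microtubule anchoring and linker. The others were Cep290 and Cep89 of the cilium base and appendages, and Cep55, Cep57l1 and Cep95. Cep55, with merged exons of 2905 bases, changed from -0.82 to -0.93 on the log2 scale, Cntrl from -1.09 to -0.89, and Cep290 from -1.28 to -0.86. The 10 genes that no longer passed were Pcnt, Nin, Cep170, Cep68, Cep164, Cep128, Cep162, Cntrob, Cep120 and Plk4 (adjusted p 0.0604 to 0.454). Their values differed in how far they moved: Nin, with merged exons of 17005 bases, changed from -0.46 to -0.09 and Cep170, with 18049 bases, from -0.67 to -0.23, while Cntrob changed from -0.50 to -0.42 and Cep68 from -0.40 to -0.34. With the trend in the FPKM length taken out instead, 20 of the 41 genes (48.8%) were lower and 1, again Cep170b, was higher. Of all genes in that fit, 12.1% were lower and 12.1% higher. Of the 10 just named, Cep170, Cep68 and Plk4 did not pass there and the other 7 did. Cep170b was at 0.44 in the trend-removed fit (adjusted p = 0.0348, edgeR) and at 0.41 with the FPKM length trend taken out (adjusted p = 0.0469, edgeR). It had 14.7, 16.4 and 14.1 CPM in DMSO 1 to 3 and 16.1, 19.5 and 20.3 CPM in BPAP 1 to 3, so that BPAP 1 lay within the DMSO range. Whether exon length or GC content has a part in the counts of these libraries was not tested beyond these fits. Over all 15 alternatives, 11 genes passed as lower in every one: Cep290, Cntrl, Cep295, Cep192, Cep135, Cep350, Cep55, Cep70, Sass6, Cep57 and Cep152. The share of all tested genes that passed in every alternative was not counted, so this number has no background beside it.

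Other genes of the centrosome, from a list chosen by role with earlier results of these data known, also fell more often than they rose. Of 51 such genes, all of them tested, 18 were lower and 2 higher, or 35.3% and 3.92%, against 15.5% and 16.2% of all genes tested, with a median log2 fold change of -0.28. The difference between the lists was not tested. Of 14 further genes of centriole building and capping, 9 fell. Among them Sfi1, of a long centrin-binding protein, was 1.63-fold lower, the spindle pole gene Wdr62 1.68-fold, Ccp110, whose product caps centrioles together with Cep97, 1.72-fold, and Wdr90 1.72-fold. Of 16 genes of the pericentriolar material and the gamma-tubulin ring, which seeds microtubules, 4 fell and 1 rose. Akap9, a large anchor for kinases and gamma-tubulin, was 2.03-fold lower, from 207 ± 16.9 to 102 ± 16.6 CPM (SD, n = 3 per group). Pcm1, the scaffold of centriolar satellites, was 1.96-fold lower and Pibf1 1.72-fold lower. Mzt2, a small subunit of the ring, rose 1.58-fold, from 11.6 ± 1.62 to 18.4 ± 3.54 CPM. The gamma-tubulin gene Tubg1 had a log2 fold change of -0.14 (SE 0.11), and Cdk5rap2, which is also called Cep215, -0.13 (SE 0.09). Neither passed.

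Of 9 genes of appendages, linker and cilium base, 4 fell and 1 rose. Crocc, which encodes the linker fibre rootletin, was 1.80-fold lower, Lrrcc1 1.75-fold and Alms1 1.93-fold, while Ift20, of transport within cilia, rose 1.37-fold. Of 8 genes of augmin, the complex that seeds microtubules within the spindle, 1 fell, a share (12.5%) below that of all genes (15.5%): Haus3 was 1.71-fold lower. None of the 4 mitotic regulators Plk1, Aurka, Nek2 and Ccnf passed in edgeR, though all 4 were lower at an unadjusted p under 0.05 and DESeq2 called 3 of them, with log2 fold changes of -0.28, -0.30, -0.33 and -0.27 (adjusted p 0.0535 to 0.0703, edgeR). In the trend-removed fit 19 of the 51 genes (37.3%) were lower, against 11.3% of all genes. Plk1, Aurka and Nek2 passed there as lower, at -0.50, -0.52 and -0.38. The rises of Mzt2 and Ift20 did not pass there (adjusted p = 0.157 and 0.363, edgeR). Neither rise passed without DMSO 1 (0.0630 and 0.0546), nor that of Ift20 without DMSO 2 (0.0586).

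**Figure D4:**
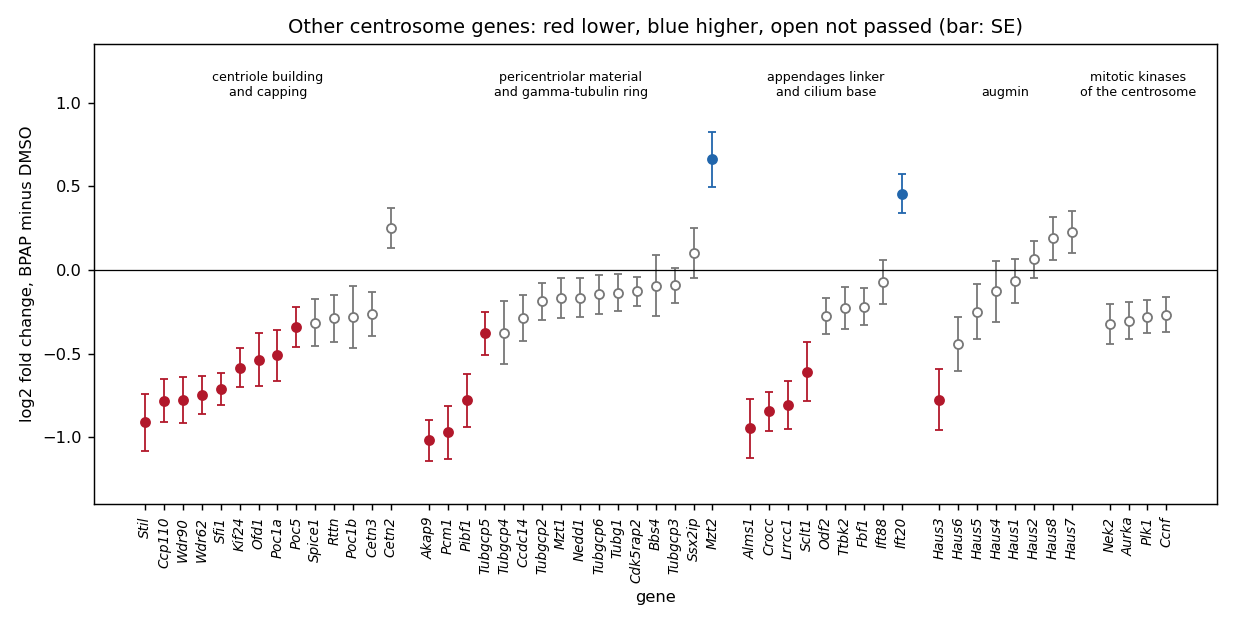
Log2 fold change (BPAP minus DMSO, vertical axis) with its standard error for 51 other centrosome genes in 5 groups. Red genes were lower and blue genes higher at an adjusted p of 0.05, and open circles did not pass. Red circles number 9 of 14 for centriole building and capping, 4 of 16 for the pericentriolar material and gamma-tubulin ring, 4 of 9 for appendages, linker and cilium base, 1 of 8 for augmin and 0 of 4 for the mitotic regulators.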

How the data were processed

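The 6 libraries, 3 of DMSO-treated and 3 of BPAP-treated RAW 264.7 cells, were sequenced as RNA. The authors deposited raw counts per gene, whole numbers per the file headers and values, and FPKM values, per the file headers. Per the submitters' processing notes, HISAT2 2.0.4, StringTie 1.3.3b, edgeR and GRCm38 were in use (roles and order not stated). How strand and multiply matching reads were handled, and the annotation release, was not stated, so counts of genes with overlapping exons are uncertain. That holds for 14 of the 41 tested genes. Of the 27 others, 16 were lower.

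The groups and numbers of the samples were taken from their titles. The counts were tested with edgeR 4.0.16 (R 4.3.3): default filter (11711 genes), TMM factors, quasi-likelihood fit with robust dispersion, treatment as the only term, 2-sided p adjusted over all tested genes by the Benjamini-Hochberg method, threshold 0.05. CPM are TMM-normalised. Exon lengths and GC content come from GENCODE M21, and the files' own coordinates are printed. In simulated counts for this comparison (11639 genes), the share recovered was 59.7% for 67 genes altered 1.5-fold, 88.1% for 67 altered 2-fold and 100% for 66 altered 4-fold, and 7 of 172 calls were false. Those counts had the same dispersion for every gene and, unlike these data, no trend with length. They therefore do not show how the main fit behaves under such a trend. In counts simulated with a length trend added, far fewer unchanged genes were called with the trend removed than without. The common biological coefficient of variation was 0.127.

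Tried in its place were size factors of DESeq2, upper quartile factors, all genes unfiltered, the DESeq2 1.42.0 test, limma-voom (limma 3.58.1), limma-trend on log2(FPKM + 1) above a mean of 1, a replicate block, each library left out, and an offset removing each library's lowess trend (span 0.3) with exon length and GC content or with the length implied by the FPKM values. Values in every library are given for up to 3 genes per role with the largest change among those past the threshold with a mean of at least 100 counts. Up to 4 related genes per group with the smallest p are named, and others named were chosen after their values were seen. The genes and lists were chosen with earlier results of these data known. No 2 libraries of the same group agreed within sampling noise (smallest chi-square per degree of freedom 7.00, DMSO 2 and DMSO 3). The values of 1 tested gene that did not pass are not reported here by name.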

Additional observations from a re-analysis of the deposited data

How the results depend on the processing

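Each of the 15 alternatives gave at least 15 lower centrosomal genes and at most 1 higher. In the trend-removed fit (exon length and GC content), 15 were lower and 1 higher, where 1317 of all genes were lower. With the FPKM length trend taken out, 20 were lower and 1 higher, where 1416 of all genes were lower. The median log2 fold change of the centrosomal genes, -0.45 as reported, was -0.31 and -0.35 in those fits and -0.36 with limma-trend on log2(FPKM + 1). Over the fits without 1 library 19 to 23 centrosomal genes were lower and 0 higher, and the median ranged from -0.47 to -0.38. Among all genes 1244 (without DMSO 1) to 1654 were higher and 1235 to 1660 lower. Of the related genes 0 to 3 were higher in those fits, 0 in the trend-removed fit and 1 with the FPKM length trend taken out. With a replicate block, 26 centrosomal genes were lower and 0 higher, and 2087 genes in all were lower. Plk4 did not pass there (adjusted p = 0.0657), and Cep85 and Cep250 did (0.0383 and 0.0488). The numbers were not shown to pair the libraries: correlations of same-numbered libraries were 0.101, 0.0542 and 0.00985, and DMSO 3 correlated best with BPAP 2.

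Signs turned in 10 genes, none of which had passed. In the trend-removed fit the log2 fold changes of Cep83, Cep72, Cep97, Cep63, Cep44 and Cep19 were 0.0234, 0.00363, 0.0600, 0.22, 0.38 and -0.0575, and with the FPKM length trend taken out those of Cep63 and Cep83os were 0.0751 and -0.0485. Cep83os was at -0.0167 with limma-voom, -0.0330 with limma-trend and -0.00618 with the block. Over the fits without 1 library, Cep83os ranged from -0.16 to 0.21, Cep41 from -0.12 to 0.27, Cep78 from -0.15 to 0.0590, Cep72 from -0.27 to 0.0907 (the last without BPAP 2) and Cep76 from -0.20 to 0.0148. Why these values differ was not tested beyond the fits themselves. In genes near 10 CPM or below, such as Cep41, Cep63 and Cep76, a change of this size may not be detectable at this depth.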
